A study of Mus musculus with 12 samples.

Results

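The mouse mitochondrial genome holds 13 protein genes, and 7 of them had counts that could be compared between libraries of dendritic cells (DCs): mt-Nd1, mt-Nd2, mt-Co1, mt-Nd4, mt-Nd5, mt-Cytb and mt-Nd6. They are 7 of the 55471 genes in the count table, taken by their symbols as the mitochondrial protein genes that uniquely mapped reads can count. The RNA-seq data covered 12 libraries in 4 groups of 3. DCs were grown with GM-CSF from the bone marrow of young adult female C57BL/6 mice, and all groups received a retrovirus with a short hairpin RNA (shRNA) and a human CD8 reporter, on which transduced cells were sorted. The hairpin was against firefly luciferase (shControl) or against Ppargc1b (shPpargc1b), which encodes PGC-1β, a co-activator of transcription. Each kind of cell was left unstimulated or was treated with the antiviral cytokine IFN-β for 6 h. The knockdown was partial, the hairpin used for these libraries was not stated separately, and nothing in the labels said whether the libraries of a group came from separate cultures or animals, so p-values measure only the spread between these libraries.

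Mitochondrial DNA is transcribed along both of its strands, heavy and light, into long precursor RNAs that span several genes, and the precursors are cut, mostly at the tRNAs that lie between the protein genes. The 6 heavy-strand genes described here encode core membrane subunits of respiratory complex I (mt-Nd1, mt-Nd2, mt-Nd4 and mt-Nd5), the cytochrome b of complex III (mt-Cytb) and the catalytic subunit COX1 of complex IV (mt-Co1). mt-Nd6, another complex I subunit, is the only mitochondrial protein gene that is transcribed from the other, light-strand promoter. Nuclear genes supply the remaining subunits of these complexes and every protein that transcribes, cuts and degrades mitochondrial RNA, and PGC-1β is known as a co-activator of such nuclear genes.

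The libraries held 49.92 to 77.73 M counts, and the 7 genes took 2.19% to 3.23% of them. Levels are given as CPM, the counts of a gene relative to the total of its library, after scaling of the libraries for composition. The level of the targeted gene Ppargc1b was 34.5 ± 1.94 CPM in shControl and 19.4 ± 0.851 CPM in shPpargc1b DCs without stimulation, and 27.8 ± 3.93 and 18.7 ± 2.83 CPM with IFN-β (SD, n = 3 each). All libraries of each knockdown group were below all libraries of their control group. The DC markers Itgax, Itgam, H2-Ab1, Cd74, Flt3, Zbtb46 and Ccr7 were detected in every group, with 3844 to 5399 summed CPM. The markers of macrophages summed to 1659 to 2047 CPM, those of neutrophils to 28.6 to 115 CPM, those of mast cells and basophils to 5.71 to 20.1 CPM, those of lymphocytes to 0.131 to 0.651 CPM and those of erythroid cells to 0 to 0.128 CPM. With the knockdown, 4 of 7 DC markers were higher in both treatments and 2 of 5 macrophage markers (Mrc1 and Mertk) were lower. Of 5 neutrophil markers 1, S100a8, was higher in both treatments. The log2 fold change of S100a9 was above 0 and those of Ly6g, Elane and Mpo were below 0, without passing the test. Of 5 mast cell and basophil markers 1, Kit, was higher in both treatments. Of all tested genes, 12.4% were higher and 11.1% lower without IFN-β, and 11.5% and 12.7% with it. With IFN-β in shControl DCs, 2 of 5 macrophage markers (Mertk and C1qa) and 1 of 7 DC markers (Ccr7) were higher. Of 5 mast cell and basophil markers 1, Kit, was lower. The others, Cpa3, Mcpt8, Fcer1a and Prss34, had log2 fold changes of 0.26 to 1.11 and did not pass the test. Of all tested genes, 23.7% were higher and 24.6% lower. The part of these marker differences in the results below was not tested, and in bulk libraries fewer cells of a type and less RNA per cell cannot be told apart.

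The 7 genes lie on chromosome M of GRCm38, and the sequences that follow are from GENCODE M21 transcripts of that build. Heavy-strand genes are written on the plus strand: mt-Nd1 at chrM:2751-3707, mt-Nd2 at chrM:3914-4951, mt-Co1 at chrM:5328-6872, mt-Nd4 at chrM:10167-11544, mt-Nd5 at chrM:11742-13565 and mt-Cytb at chrM:14145-15288. mt-Nd6, at chrM:13552-14070, is on the minus strand between mt-Nd5 and mt-Cytb. Each gene is 1 exon without introns. The opening 60 bases of each transcript, from 5′ to 3′ with the annotated start codon in capitals, show how the light-strand gene differs in base content from the others.
mt-Nd1: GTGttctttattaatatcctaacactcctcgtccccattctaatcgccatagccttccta
mt-Nd2: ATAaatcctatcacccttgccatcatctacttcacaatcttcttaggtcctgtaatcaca
mt-Co1: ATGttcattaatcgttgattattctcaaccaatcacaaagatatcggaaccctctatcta
mt-Nd4: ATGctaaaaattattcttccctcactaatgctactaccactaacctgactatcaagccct
mt-Nd5: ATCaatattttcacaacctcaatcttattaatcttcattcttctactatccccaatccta
mt-Cytb: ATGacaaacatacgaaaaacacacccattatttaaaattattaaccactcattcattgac
mt-Nd6: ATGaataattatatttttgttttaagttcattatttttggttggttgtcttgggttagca
Over its whole length, the mt-Nd6 transcript was 28.1% G and 5.97% C, and the 6 heavy-strand transcripts were 8.0% to 16.1% G and 23.8% to 27.7% C. The annotated transcripts were 957 bases long for mt-Nd1, 1038 for mt-Nd2, 1545 for mt-Co1, 1378 for mt-Nd4, 1824 for mt-Nd5, 1144 for mt-Cytb and 519 for mt-Nd6.

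mt-Nd5 and mt-Nd6 end on top of each other, on opposite strands, which matters for counting because the precursor of one strand is antisense to the genes of the other. Their final 30 bases are shown 5′ to 3′, each on its own strand, with the 14 shared bases in capitals.
mt-Nd5 end: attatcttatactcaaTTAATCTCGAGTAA
mt-Nd6 end: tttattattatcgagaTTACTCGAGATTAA
The library kit marks strand, but the sources used here do not state which strand column was counted. Among genes that lie wholly inside an exon of a gene on the opposite strand with at least 10000 counts, 111 of 126 (88.1%) had at least 1 count, with a median of 17 counts. STAR leaves reads over such genes uncounted when strand is ignored. How much of the mt-Nd6 count came from antisense RNA could not be measured from the table.

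The other 6 mitochondrial protein genes could not be compared. They had at most 14 counts in any library, and over all 12 libraries their totals were 28 for mt-Co2, 9 for mt-Atp8, 22 for mt-Atp6, 19 for mt-Co3, 68 for mt-Nd3 and 3 for mt-Nd4l, against 168254 for mt-Nd6, the least counted of the 7. Reads that match 2 places equally well are left out when only uniquely mapped reads are counted, and 5 of these 6 genes have an annotated nuclear copy on chromosome 1 that is nearly identical. The opening 60 bases of mt-Co2 and of its copy Gm28661 had 0 differences.
mt-Co2: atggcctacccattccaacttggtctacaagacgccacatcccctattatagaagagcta
Gm28661: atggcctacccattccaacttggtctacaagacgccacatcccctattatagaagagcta
The 2 transcripts were identical over 681 bases, so that 99.5% of the 100-base windows of mt-Co2, the length of 1 read, also occur in the copy. For mt-Atp6, mt-Co3, mt-Nd3 and mt-Nd4l this share was 97.6% to 99.9%. mt-Atp8 had no copy among the annotated transcripts, which were the only sequences searched.

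Copies also cover part of 3 of the 7 genes. Gm28439 matches 876 of the 1378 bases of mt-Nd4 without a mismatch, and 60.8% of the 100-base windows of mt-Nd4 occur in it. Gm29216 matches 492 bases of mt-Co1 at 98.8% identity and holds 26.3% of the windows of mt-Co1. With Gm13340 on chromosome 2, which holds 5.53%, the shared part of mt-Co1 came to 30.8%. Gm13339 matches 510 bases of mt-Nd2 at 96.7%, with 3.19% of the windows shared. mt-Nd1, mt-Nd5, mt-Nd6 and mt-Cytb shared none of their windows. A read pair that lies wholly in shared sequence has more than 1 best place, while a pair with 1 read outside it can still be placed, and how many pairs were lost could not be measured from the table. The copies had 164 counts (Gm28439), 6528 (Gm29216), 1173 (Gm13340) and 31 (Gm13339) over the 12 libraries, against 1091498 for mt-Nd4, 9618933 for mt-Co1 and 1097139 for mt-Nd2.

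**Figure D1:**
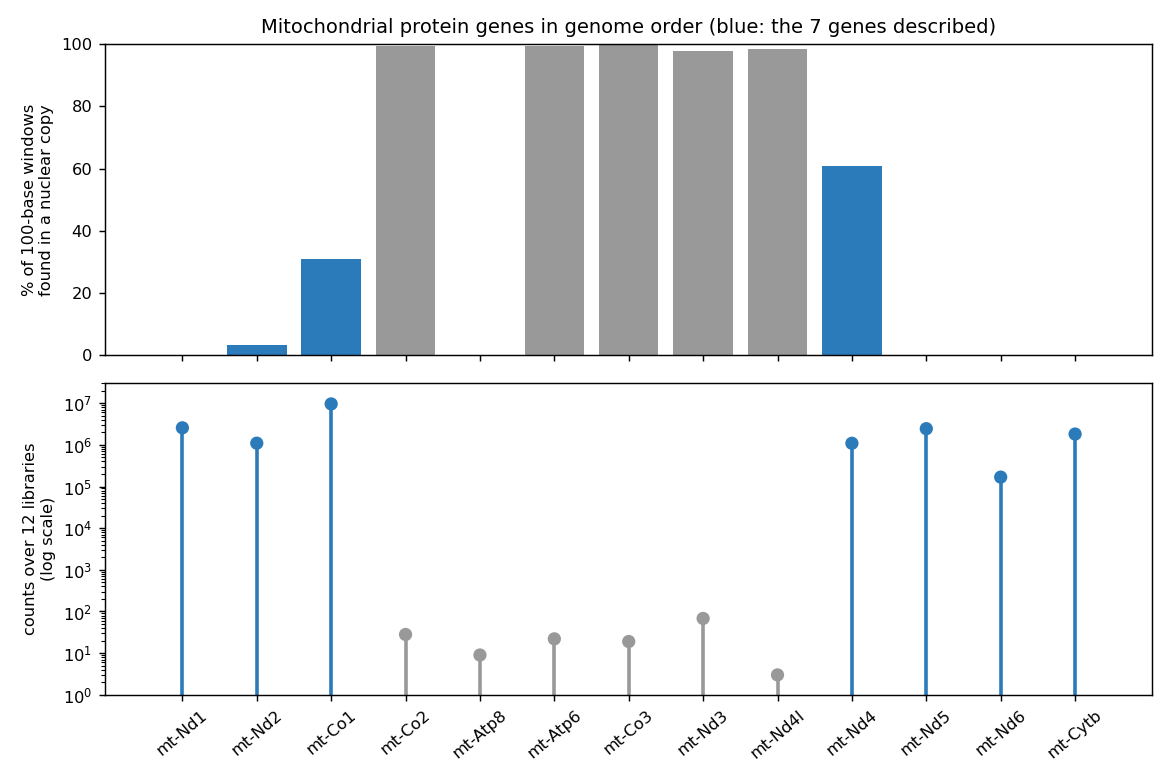
For the 13 mitochondrial protein genes in genome order, the upper bars give the percent of 100-base windows that also occur in an annotated nuclear copy, and the lower points give the counts summed over 12 libraries on a log axis, with the 7 genes described here in blue. The 5 genes with over 97% of their windows in a copy had 3 to 68 counts, and mt-Atp8, with no copy found, had 9.

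Per kilobase of annotated length, the genes kept 1 order of level in every group: mt-Co1, mt-Nd1, mt-Cytb, mt-Nd5, mt-Nd2, mt-Nd4 and mt-Nd6. In unstimulated shControl DCs the levels were 9108 ± 169.6 CPM per kilobase for mt-Co1, 4302 ± 14.8 for mt-Nd1, 2695 ± 65.6 for mt-Cytb, 2296 ± 65.5 for mt-Nd5, 1839 ± 26.8 for mt-Nd2, 1314 ± 10.7 for mt-Nd4 and 495.0 ± 18.8 for mt-Nd6 (SD, n = 3). Neighbours in this order did not overlap between libraries in that group, in unstimulated shPpargc1b or in IFN-β-treated shControl DCs. In IFN-β-treated shPpargc1b DCs, mt-Cytb, mt-Nd5, mt-Nd2 and mt-Nd4 overlapped with their neighbours. The place of mt-Nd4 depends on which length is used: per kilobase of windows that no copy shares, mt-Nd4 stood at 3607 in unstimulated shControl, above mt-Cytb at 2950 and below mt-Nd1 at 4799.

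The knockdown without IFN-β asks whether loss of PGC-1β lowers mitochondrial messages in resting DCs. mt-Nd6 fell and the other 6 genes did not pass the test. mt-Nd6 was at 260.7, 264.2 and 245.8 CPM in the 3 shControl libraries and at 204.4, 229.0 and 208.5 CPM in the 3 shPpargc1b libraries, so that all knockdown libraries were below all control libraries. Its log2 fold change was -0.26 ± 0.07 (SE), a fall of 16.7% (edgeR quasi-likelihood test, adjusted p = 0.00839). Across the table, 12.4% of the 18228 tested genes were higher and 11.1% were lower in this comparison, against 0 and 1 of the 7.

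The heavy-strand genes had small log2 fold changes, all below 0. mt-Cytb had 3110, 2998 and 3141 CPM in shControl and 2438, 2894 and 2883 CPM in shPpargc1b libraries (log2 fold change -0.17 ± 0.07, adjusted p = 0.104). mt-Nd5 had 4087, 4158 and 4320 CPM in shControl and 3692, 3600 and 3838 CPM in shPpargc1b libraries (-0.18 ± 0.08, adjusted p = 0.149). These 2 genes lie on either side of mt-Nd6, and in both the knockdown libraries lay below the controls without overlap. mt-Nd2 had 1907, 1882 and 1938 CPM in shControl and 1608, 1811 and 1757 CPM in shPpargc1b libraries (-0.15 ± 0.08, adjusted p = 0.196). mt-Nd4 had 1805, 1799.5 and 1827 CPM against 1519, 1705 and 1678 CPM (-0.15 ± 0.07, adjusted p = 0.132). mt-Co1, the most abundant of the 7, had 13806, 14330 and 14078 CPM against 13235, 13181 and 12868 CPM (-0.10 ± 0.05, adjusted p = 0.123). For these 3 genes too, no knockdown library reached a control library. How many of all tested genes separate in this way was not counted. mt-Cytb, mt-Nd5, mt-Nd2 and mt-Nd4 also vary together across libraries (Pearson's r of 0.943 to 0.991), so they are not separate observations. mt-Nd1 had 4123, 4128 and 4101 CPM against 3726, 4125 and 4175 CPM, and its libraries overlapped (-0.04 ± 0.08, adjusted p = 0.786). The median log2 fold change was -0.15 over the 7 genes and -0.0049 over all tested genes. All groups share 1 spread estimate, and the count of calls changed between analyses, for reasons that were not tested. It was 5 lower, all but mt-Nd1 and mt-Co1, without replicate 2 of IFN-β-treated shPpargc1b DCs. The count was 5 without a filter on low counts and 3 with only these 2 groups in the fit. The library codes run in consecutive sets of 4 with 1 library of each group, their meaning is not given, and a term for these sets gave 2, with mt-Nd5 added (adjusted p = 0.0268).

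**Figure D2:**
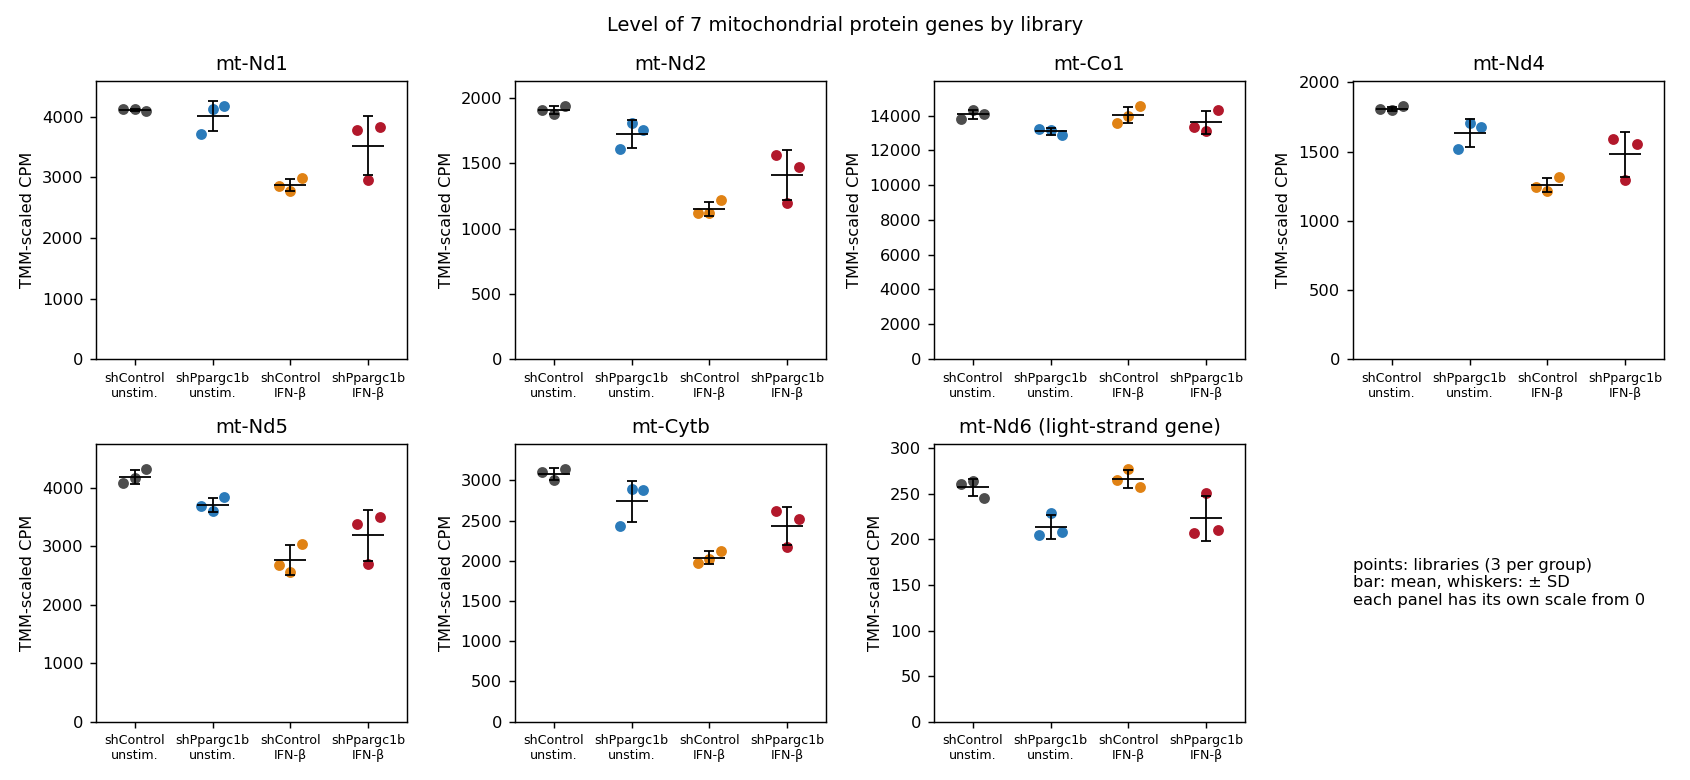
TMM-scaled CPM (trimmed mean of M-values) of each of the 7 genes by group, with 1 point per library and the mean ± SD of 3 libraries, each panel on its own axis from 0. The levels of 5 heavy-strand genes were lowest in IFN-β-treated shControl DCs, while mt-Co1 stayed between 12868 and 14536 CPM and mt-Nd6 was lower in both knockdown groups.

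Among IFN-β-treated cells, replicate 2 of shPpargc1b stood apart from the other 2 libraries of its group in all of the 7 genes except mt-Co1. It had 2961 CPM of mt-Nd1 where the others had 3779 and 3831, and 251.2 CPM of mt-Nd6 where the others had 207.4 and 210.2, values close to those of IFN-β-treated shControl libraries. In mt-Co1 it was at 13141 CPM, near replicate 1 at 13349, and replicate 3 was at 14351. The level of the targeted gene Ppargc1b in replicate 2 was 15.5 CPM against 19.6 and 20.9 in the others, which is farther from the control group. Interferon-induced genes went both ways. Its level of Isg15 was 285.1 CPM against 267.4 and 263.6, which is nearer to the 289.3 to 315.6 CPM of IFN-β-treated shControl libraries. Rsad2 was also nearer, at 2841 CPM against 2646 and 2565, with 2918 to 3516 CPM in those shControl libraries. Ifit1 was farther from them, at 897.6 CPM against 930.3 and 903.3, with 1038 to 1175 CPM in the shControl libraries. Results for the knockdown with IFN-β are given with and without replicate 2 of shPpargc1b. This library was singled out by its levels of the mitochondrial genes themselves, so that a larger difference without it is a description.

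With IFN-β, 4 of the 6 heavy-strand genes were higher and mt-Nd6 was lower in shPpargc1b than in shControl DCs. Of all tested genes, 11.5% were higher and 12.7% lower. mt-Nd6 was at 264.9, 277.2 and 257.4 CPM in shControl and at 207.4, 251.2 and 210.2 CPM in shPpargc1b libraries, again without overlap (log2 fold change -0.26 ± 0.07, adjusted p = 0.00978). Without the library that stood apart its log2 fold change was -0.36 (adjusted p = 0.000159). mt-Cytb was at 1968, 2029 and 2126 CPM in shControl and at 2625, 2168 and 2515 CPM in shPpargc1b libraries (0.26 ± 0.07, adjusted p = 0.0167), and its groups did not overlap either.

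The other 3 called genes are complex I genes, and their groups overlapped through that 1 library. mt-Nd1 was at 2858, 2780 and 2985 CPM in shControl and at 3779, 2961 and 3831 CPM in shPpargc1b libraries (0.29 ± 0.08, adjusted p = 0.0112). mt-Nd2 was at 1122, 1123 and 1216 CPM against 1566, 1199 and 1471 CPM (0.29 ± 0.08, adjusted p = 0.0109). mt-Nd4 was at 1244, 1216 and 1318 CPM against 1594, 1295 and 1555 CPM (0.23 ± 0.07, adjusted p = 0.0187). Neither mt-Nd5 nor mt-Co1 passed the test. mt-Nd5 was at 2682, 2555 and 3044 CPM against 3382, 2691 and 3499 CPM (0.21 ± 0.08, adjusted p = 0.0806). mt-Co1 was at 13570, 14003 and 14536 CPM against 13349, 13141 and 14351 CPM (-0.04 ± 0.05, adjusted p = 0.543). The median log2 fold change was 0.23 over the 7 genes and -0.01 over all tested genes.

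The calls of the higher heavy-strand genes depended on single libraries, and that of mt-Nd6 did not. Without replicate 2 of IFN-β-treated shPpargc1b, 5 heavy-strand genes were higher, with log2 fold changes of 0.31 (mt-Nd4 and mt-Nd5), 0.32 (mt-Cytb) and 0.39 (mt-Nd1 and mt-Nd2). Without replicate 1 or replicate 3 of that group, or without replicate 2 of IFN-β-treated shControl, none of the 7 genes was called higher, and 1, mt-Nd6, was called lower. Without replicate 1 of IFN-β-treated shControl, 1 gene, mt-Nd1, was called higher and 1 lower. The log2 fold changes kept their direction over these omissions, with lowest values of 0.22 for mt-Nd1, 0.20 for mt-Nd2, 0.17 for mt-Nd4 and 0.19 for mt-Cytb, and highest adjusted p of 0.0773, 0.0803, 0.121 and 0.103. With the term for sets of library codes 5 were higher, mt-Nd5 among them (adjusted p = 0.0109). mt-Nd6 kept an adjusted p of at most 0.0370 in every one of 19 alternative analyses with IFN-β and of at most 0.0415 in the 19 without it.

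IFN-β in shControl DCs lowered 5 of the 6 heavy-strand genes, by 30.2% to 39.6%. The CPM of IFN-β-treated and unstimulated shControl libraries are those given above, and in each of these 5 genes every treated library was below every unstimulated one. mt-Nd2 had the largest fall (log2 fold change -0.73 ± 0.08, adjusted p = 1.04e-06), followed by mt-Nd5 (-0.60 ± 0.08, adjusted p = 1.8e-05), mt-Cytb (-0.60 ± 0.07, adjusted p = 4.8e-06), mt-Nd4 (-0.52 ± 0.07, adjusted p = 8.9e-06) and mt-Nd1 (-0.52 ± 0.08, adjusted p = 4.18e-05). Of all tested genes, 23.7% were higher and 24.6% were lower with IFN-β, and the median log2 fold change was -0.52 over the 7 genes and -0.03 over all tested genes. These 5 calls held in all 19 alternatives.

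mt-Co1 and mt-Nd6 differed from the other 5. The log2 fold change with IFN-β was -0.0036 ± 0.05 for mt-Co1 (adjusted p = 0.957) and 0.05 ± 0.07 for mt-Nd6 (adjusted p = 0.547), and for both genes treated and unstimulated libraries overlapped. Their direction hangs on the scaling: with library totals alone the median of all tested genes moved to -0.27, and mt-Co1 was then at -0.24 (adjusted p = 0.000189) and mt-Nd6 at -0.19 (adjusted p = 0.0173). Both values lay close to that median, and the other 5 ranged from -0.76 to -0.97.

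In shPpargc1b DCs, 2 of the 7 genes were lower with IFN-β and 0 were higher. Of all tested genes, 21.4% were higher and 21.2% lower, and the median was -0.17 over the 7 genes and -0.02 over all tested genes. mt-Nd2 changed by -0.29 ± 0.08 (adjusted p = 0.0061) and mt-Nd5 by -0.22 ± 0.08 (adjusted p = 0.0446), and in both the treated libraries lay below the unstimulated ones. mt-Nd1 changed by -0.19 ± 0.08 (adjusted p = 0.0654), mt-Cytb by -0.17 ± 0.07 (adjusted p = 0.0716) and mt-Nd4 by -0.14 ± 0.07 (adjusted p = 0.106), with overlapping libraries. mt-Co1 was at 0.06 ± 0.05 (adjusted p = 0.358) and mt-Nd6 at 0.06 ± 0.07 (adjusted p = 0.513). With library totals alone, 6 genes were called lower and mt-Co1 and mt-Nd6 were at -0.15 and -0.14. The median of all tested genes was then -0.22, below both values, and 9891 of 18228 tested genes were called. With the term for sets of library codes 4 were called lower, with mt-Nd1 and mt-Cytb added, and 8388 of all tested genes were called. Without replicate 2 of the treated group only mt-Nd2 was called (-0.18, adjusted p = 0.0172), and the count ranged from 1 to 5 when other single libraries were left out. It was 5 without replicate 1 and 3 without replicate 3 of the treated group, 4 without replicate 1 of unstimulated shPpargc1b, 2 without replicate 2 or replicate 3 of IFN-β-treated shControl, and 1 without each of the others.

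**Figure D3:**
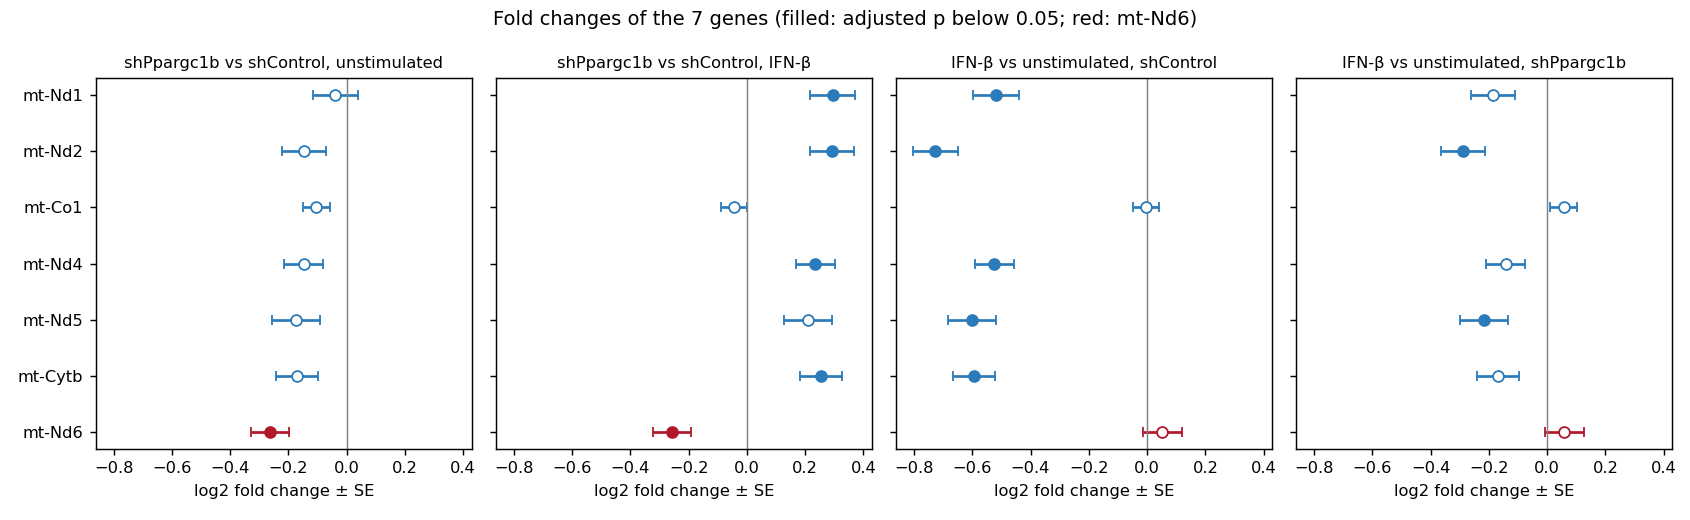
Log2 fold change ± SE of the 7 genes in the 4 comparisons, from the edgeR fit of 12 libraries, with filled points for an adjusted p below 0.05 and mt-Nd6 in red. mt-Nd6 was at -0.26 in both knockdown comparisons, while the other genes of complex I ran from -0.18 to -0.04 without IFN-β and from 0.21 to 0.29 with it.

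The difference between both knockdown effects, which is also the difference between both IFN-β effects, was tested as an interaction. By edgeR 0 of the 7 genes were called at an adjusted p below 0.05, while 5 had an unadjusted p below it. DESeq2 called 4 of the 7, and 449 of all 18228 tested genes. With the term for sets of library codes edgeR also called 4, mt-Nd2 (adjusted p = 0.0250), mt-Nd4 (0.0232), mt-Nd5 (0.0174) and mt-Cytb (0.0190), and 425 of all tested genes in place of 133. Of all tested genes 0.73% were called by edgeR without that term. The knockdown effect with IFN-β minus that without it was 0.44 ± 0.11 for mt-Nd2 (adjusted p = 0.0799), 0.43 ± 0.10 for mt-Cytb (adjusted p = 0.0706), 0.38 ± 0.09 for mt-Nd4 (adjusted p = 0.0832), 0.38 ± 0.12 for mt-Nd5 (adjusted p = 0.175) and 0.33 ± 0.11 for mt-Nd1 (adjusted p = 0.223). It was 0.06 ± 0.06 for mt-Co1 (adjusted p = 0.847) and 0.0065 ± 0.09 for mt-Nd6 (adjusted p = 0.993). Without replicate 2 of IFN-β-treated shPpargc1b, 271 of 18634 tested genes passed the test. The same 5 heavy-strand genes were among them, with values of 0.43 for mt-Nd1, 0.53 for mt-Nd2, 0.46 for mt-Nd4, 0.48 for mt-Nd5 and 0.49 for mt-Cytb. That library was singled out by its levels of these 5 genes and mt-Nd6, so these larger values are a description. Without any 1 of the other 11 libraries 0 of the 7 passed, and the adjusted p of these 5 genes was 0.0726 to 0.476.

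The balance of the strands was measured within each library, as the count of mt-Nd6 over the summed counts of the 6 heavy-strand genes, so that scaling between libraries does not enter. mt-Nd6 was 0.904%, 0.902% and 0.836% of the heavy-strand sum in unstimulated shControl libraries and 0.780%, 0.838% and 0.767% in unstimulated shPpargc1b libraries. With IFN-β it was 1.13%, 1.17% and 1.02% in shControl and 0.789%, 1.07% and 0.772% in shPpargc1b libraries. All IFN-β-treated shControl libraries lay above all unstimulated ones, a log2 difference of 0.33 (exact two-sided permutation test, p = 0.1, the smallest that 3 against 3 libraries allow). The knockdown groups overlapped with their controls, with log2 differences of -0.15 without IFN-β (p = 0.2, exact) and -0.35 with it (p = 0.2, exact). In shPpargc1b DCs the difference with IFN-β was 0.13 (p = 0.6, exact), and -0.03 without replicate 2 of the treated group.

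When both treatments entered 1 exact permutation test, with libraries exchanged only within a treatment, the mt-Nd6 share was lower with the knockdown by a log2 difference of -0.25 (p = 0.02). In the exact permutation test that exchanged libraries only within an shRNA, it was higher with IFN-β by 0.23 (p = 0.03). Over the 12 tests of this kind both had an adjusted p of 0.12, so neither passed the correction. The choice of denominator moved the size of the IFN-β difference in shControl, which was 0.65 against mt-Nd5 and mt-Cytb alone and 0.64 without mt-Co1.

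**Figure D4:**
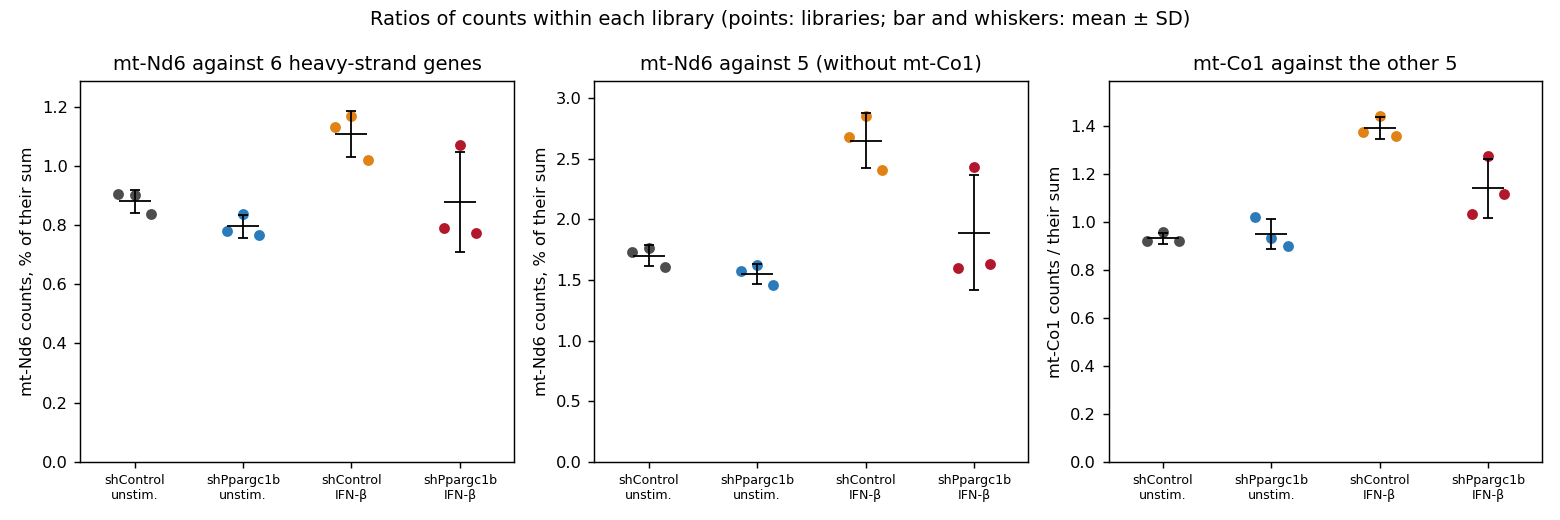
Ratios of counts within each library by group, with 1 point per library and the mean ± SD of 3: mt-Nd6 as a percent of the sum of 6 heavy-strand genes, the same without mt-Co1, and mt-Co1 over the sum of the other 5. In IFN-β-treated shControl DCs the mean was 1.11%, 2.65% and 1.39, against 0.881%, 1.70% and 0.932 in unstimulated shControl DCs.

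The ratio of mt-Co1 to the other 5 heavy-strand genes was taken up after the levels had been seen and is given as a description. It was 0.919, 0.958 and 0.919 in unstimulated shControl and 1.02, 0.933 and 0.898 in unstimulated shPpargc1b libraries. With IFN-β it was 1.37, 1.44 and 1.36 in shControl and 1.03, 1.27 and 1.12 in shPpargc1b libraries. All treated libraries were above all unstimulated ones, and the treated shPpargc1b libraries were between. Across the 12 libraries, Pearson's r of log2 CPM was 0.943 to 0.991 for all pairs among mt-Nd1, mt-Nd2, mt-Nd4, mt-Nd5 and mt-Cytb. With these 5, mt-Co1 had r of -0.13 to 0.06 and mt-Nd6 had r of -0.51 to -0.28, and mt-Co1 and mt-Nd6 had r = 0.47 with each other. The points share the 4 groups and their scaling, and no test was made of them.

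Together the 7 genes made up 3.19% ± 0.0456 of all counts in unstimulated shControl, 2.91% ± 0.0642 in unstimulated shPpargc1b, 2.24% ± 0.0785 in IFN-β-treated shControl and 2.42% ± 0.196 in IFN-β-treated shPpargc1b libraries (SD, n = 3). Over both shRNAs the share was lower with IFN-β by a log2 difference of -0.39 (exact permutation test within shRNA, p = 0.005, the smallest it can give, adjusted p = 0.06), and it was lower in 6 of 6 treated libraries than in any unstimulated library of the same shRNA. Per TMM-scaled library size the difference with IFN-β was smaller, -0.27 in shControl and -0.07 in shPpargc1b DCs, against -0.51 and -0.27 of all counts. The knockdown difference was -0.13 without IFN-β (exact permutation test, p = 0.1) and 0.11 with it (p = 0.3, exact), and -0.01 over both treatments (p = 0.855, exact). mt-Co1 is the largest part of this sum, which mixes its level with those of the 5 genes that fell. Of all counts on the 37 rows of the mitochondrial genome, the 7 genes held 99.6%.

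With the knockdown 12.4% of all tested genes were higher and 11.1% lower without IFN-β, and 11.5% and 12.7% with it. Of 11 genes for mitochondrial transcription 0 were called without IFN-β and 1 with it, Tfam, which encodes a factor that packs mitochondrial DNA and starts transcription (log2 fold change -0.23 ± 0.07, adjusted p = 0.0263). Without IFN-β, Polrmt, the mitochondrial RNA polymerase, had 6.56 ± 0.643 CPM in shControl and 6.68 ± 0.706 CPM in shPpargc1b DCs (SD, n = 3, adjusted p = 0.89), and Tfb2m, an initiation factor, at 11.7 ± 0.973 and 10.4 ± 0.701 CPM (adjusted p = 0.159). Tefm, an elongation factor, was at 4.19 ± 0.24 and 4.65 ± 0.5 CPM (adjusted p = 0.421). Of 13 genes for maintenance of mitochondrial DNA, 1 was lower in each treatment and 0 were higher.

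With IFN-β in shControl DCs, where 24.6% of all tested genes were lower and 23.7% higher, 4 of the 11 transcription genes were lower and 1 was higher. Polrmt changed by -0.70 ± 0.11 (adjusted p = 7.48e-05) and Tfb2m by -0.56 ± 0.08 (adjusted p = 4.04e-05), while Tfam changed by 0.37 ± 0.07 (adjusted p = 0.000378). Tefm changed by 0.23 ± 0.12 and did not pass the test (adjusted p = 0.126). In shPpargc1b DCs the same counts were 4 lower and 1 higher, with Polrmt at -0.41 (adjusted p = 0.00636), Tfb2m at -0.28 (adjusted p = 0.012) and Tfam at 0.23 (adjusted p = 0.0161). Of 13 genes for DNA maintenance, 5 were lower and 3 higher in shControl, and of 12 translation factors 7 were lower and 0 higher.

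The next lists hold genes that cut, protect or degrade mitochondrial RNA. Of 15 RNA processing genes 12 were lower and 1 was higher with IFN-β in shControl DCs, with a median log2 fold change of -0.31 against -0.03 over all tested genes. Fastk, whose mitochondrial form is needed for mt-Nd6 RNA, was lower (-0.37 ± 0.05, adjusted p = 3.8e-05). Of 6 stability and decay genes 3 were higher and 3 lower, with a median of -0.03. Pnpt1, the mitochondrial polynucleotide phosphorylase that degrades RNA and a known interferon-induced gene, rose from 38.4 ± 2.11 CPM to 119 ± 6.66 CPM, a log2 fold change of 1.64 ± 0.09 (adjusted p = 3.67e-10). Its partner, the helicase gene Supv3l1, was lower (-0.49 ± 0.08, adjusted p = 8.32e-05). Lrpprc, whose product stabilises heavy-strand messages, fell from 61.9 ± 1.27 to 33.2 ± 1.49 CPM (-0.90 ± 0.05, adjusted p = 9.02e-10). Slirp, the gene of its binding partner, rose from 20.4 ± 0.52 to 37.8 ± 0.712 CPM (0.89 ± 0.06, adjusted p = 7.59e-09). Grsf1, which encodes an RNA granule protein that binds light-strand RNA such as mt-Nd6, was higher (0.26 ± 0.04, adjusted p = 4.4e-05).

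For the knockdown, 12.4% of all tested genes were higher and 11.1% lower without IFN-β, and 11.5% and 12.7% with it. These shares were smaller than those for IFN-β in shControl DCs. Without IFN-β, Lrpprc was lower (-0.18 ± 0.05, adjusted p = 0.0184) and the other 5 stability and decay genes did not pass the test. With IFN-β, Pnpt1 (-0.31 ± 0.09, adjusted p = 0.0134) and Grsf1 (-0.11 ± 0.04, adjusted p = 0.0463) were lower. Of the 15 RNA processing genes, 1 was higher without IFN-β, and 4 were higher and 1 lower with it. Of the 12 translation factors, 1 was lower without IFN-β and 1 was higher with it.

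Most nuclear genes for partners of the 7 proteins in the same complexes were lower with the knockdown, where 11.1% of all tested genes were lower without IFN-β and 12.7% with it. Of 7 nuclear core subunits of complex I, 7 were lower without IFN-β, with log2 fold changes of -0.38 to -0.20, and 3 were lower with IFN-β (-0.36 to -0.11 over the list). The 4 heavy-strand complex I genes were at -0.18 to -0.04 and at 0.21 to 0.29. Of 9 nuclear partners of cytochrome b, 9 were lower without IFN-β (-0.60 to -0.28) and 7 with it (-0.50 to -0.14), where mt-Cytb was at -0.17 and 0.26. Of 10 nuclear partners of COX1, 9 were lower in each treatment, with medians of -0.33 and -0.26, where mt-Co1 was at -0.10 and -0.04. mt-Nd6, at -0.26 in both, lay within the range of the nuclear complex I genes. The difference between nuclear and mitochondrial genes was not tested as such, and earlier results on these libraries were known when the lists were written, so their direction is not independent evidence.

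**Figure D5:**
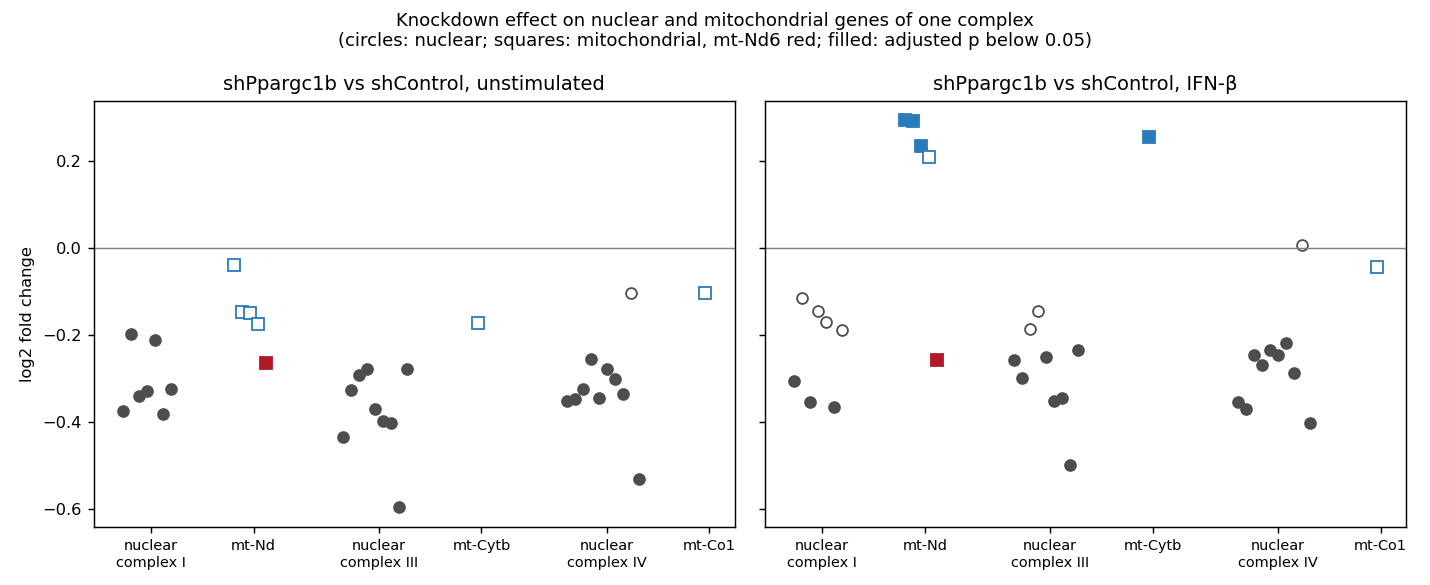
Log2 fold change with the knockdown for nuclear genes (circles) and mitochondrial genes (squares, mt-Nd6 in red) of complexes I, III and IV, without and with IFN-β, filled for an adjusted p below 0.05. Without IFN-β the nuclear medians were -0.33, -0.37 and -0.33, and with IFN-β 5 mitochondrial genes were above 0 where 25 of 26 nuclear genes were below it. With IFN-β, 4 mitochondrial genes passed the test as higher, and 3 of 7, 7 of 9 and 9 of 10 nuclear genes as lower. The calls of those 4 depended on single libraries.

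The genes outside the mitochondrial genome whose log2 CPM over the 12 libraries was most like that of the summed heavy-strand genes were Rbmx (Pearson's r = 0.946), Cbfa2t3 (r = 0.916) and D130019J16Rik (r = 0.912), among 8759 genes compared. For mt-Nd6 they were Plxnb2 (r = 0.946), Septin2 (r = 0.933) and Lrrc8b (r = 0.932). The level of Rbmx was 26.4 CPM in shControl DCs without IFN-β and 21.3 CPM with it, and that of Plxnb2 was 82.3 and 80.4 CPM in these groups and 45.5 and 49.2 CPM in the knockdown groups.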

How the data were processed

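RNA-seq was measured in 12 libraries of mouse bone marrow-derived DCs. The authors depleted ribosomal RNA (KAPA RNA HyperPrep with RiboErase) and sequenced 100-base read pairs. Reads were trimmed with trim_galore (0.6.0 in the submitters' processing notes) and mapped to mm10 with STAR (2.7.8a in those notes), which counted GENCODE M20 genes. The deposited values were raw counts of uniquely mapped read pairs per gene, with no normalization by the authors and no pooling.

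Counts were analysed as in the study's methods, with edgeR 4.0.16 in R 4.3.3. filterByExpr (minimum count 10, minimum total 15) kept 18228 of 55471 genes. Library sizes were scaled by TMM, all 12 libraries entered 1 model with a mean for each group, quasi-likelihood F-tests were used, and p-values were adjusted by Benjamini-Hochberg over all tested genes with a threshold of 0.05. Every adjusted p of a gene comes from this fit unless another tool is named. The contrasts share groups, so the knockdown and IFN-β comparisons are not independent of each other. Single ratios were compared by exact two-sided permutation tests. Within groups, chi-square per gene between libraries was 8.57 to 21.4, so no library was a repeat of another. The fit was tested on simulated data. Alternatives were other scalings, no filter, DESeq2 1.42.0, a term for consecutive sets of library codes, only the groups compared, and leaving out each library.

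Gene positions and sequences came from GENCODE M21 (GRCm38), a later release than the authors used. Copies were sought as 100-base windows in its other transcripts. The genes, pathway lists and markers were chosen with earlier results of these data known. Named by rule are the protein and rRNA genes of the mitochondrial genome, Ppargc1b, 10 genes of mitochondrial transcription and RNA turnover chosen with the lists, and the 3 genes most like each pattern among those with a mean log2 CPM of at least 3. Markers, nuclear copies, mt-Tm, Isg15, Rsad2 and Ifit1 are named beside the results they touch, some of them after their values had been seen.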

Additional observations from a re-analysis of the deposited data

Results flagged for a closer look

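The knockdown effect differed in direction between unstimulated and IFN-β-treated DCs for mt-Nd2, mt-Nd4 and mt-Cytb. Every unstimulated shPpargc1b library was below the mean of its shControl group in these genes, and every IFN-β-treated shPpargc1b library was above the mean of its own. The difference of the log2 fold changes was 0.44 for mt-Nd2, 0.38 for mt-Nd4 and 0.43 for mt-Cytb. The test of this difference missed the threshold for all 3 (edgeR, adjusted p = 0.0799, 0.0832 and 0.0706). Without replicate 2 of IFN-β-treated shPpargc1b, a library singled out by its levels of these genes, the adjusted p was 0.00445, 0.00649 and 0.012, and without any 1 of the other 11 libraries it was at least 0.0970, 0.0978 and 0.0726 and at most 0.228, 0.244 and 0.190. With a term for sets of library codes, whose meaning is not given, it was 0.0250, 0.0232 and 0.0190.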

How the results depend on the processing

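Over 19 alternative analyses (18 for the interaction), 563 of 658 values for single genes kept their direction and their side of the threshold. In the same direction, 26 lost and 49 gained a call, and 20 turned direction. All 20 that turned were of genes that had not passed the test in the main fit. Among these 20, mt-Nd6 with IFN-β in shControl (edgeR with library totals, adjusted p = 0.0173) and mt-Co1 with IFN-β in shPpargc1b (adjusted p = 0.0102) gained a call. The 5 lower genes with IFN-β in shControl and the lower mt-Nd6 in both knockdown comparisons kept their calls throughout. The smallest count of the 7 genes in a library was 10506. The labels give no replicate numbers, so no replicate block was fitted. The nearest to one is a term for sets of library codes, under which the genes called among all tested went from 4295 to 5041 for the knockdown without IFN-β, from 4414 to 5180 with it and from 133 to 425 for the interaction. The causes of these changes were not tested.

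Without a filter on low counts, which tests 43864 genes, 5 genes were called for the knockdown without IFN-β, 5 for IFN-β in shPpargc1b and 5 for the interaction. The term for sets of library codes gave 2, 4 and 4, and only the groups compared in the fit gave 3 for the knockdown and 1 for IFN-β in shPpargc1b. RLE scaling and scaling from nuclear rows gave 1 each for IFN-β in shPpargc1b. Library totals gave 6, where 9891 of 18228 tested genes were called. DESeq2 gave 4 for the interaction, where it called 449 of 18228.

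With IFN-β in shControl, mt-Co1 was at 0.0111 with RLE scaling, 0.0121 with scaling from nuclear rows, 0.0155 with only the groups compared and 0.0111 with DESeq2. With library totals, mt-Nd6 was at -0.1869 in shControl, and mt-Co1 was at -0.1471 and mt-Nd6 at -0.1446 in shPpargc1b. The interaction of mt-Nd6 was -0.0012 with scaling from nuclear rows and -0.0031 without a filter. The mt-Nd6 share changed with IFN-β in shControl by 0.549 against the mean of log2 CPM of the 6 heavy-strand genes, 0.6536 against mt-Nd5 and mt-Cytb, and 0.6368 without mt-Co1, and its interaction was -0.3955 and -0.3768 under the latter 2. Per TMM-scaled library size, the share of the 7 genes changed with IFN-β by -0.2719 in shControl and -0.0703 in shPpargc1b.

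Leaving out 1 library at a time gave 1 to 5 calls for the knockdown without IFN-β, 1 to 6 with it, 1 to 5 for IFN-β in shPpargc1b and 0 to 5 for the interaction. The log2 fold change ran from -0.0663 to 0.0133 for mt-Nd1 with the knockdown without IFN-β, from -0.0339 to 0.0372 for mt-Co1 with IFN-β in shControl, from -0.0303 to 0.1159 for mt-Nd6 with IFN-β in shPpargc1b, and from -0.1009 to 0.0796 for the interaction of mt-Nd6. The mt-Nd6 share changed by -0.0253 to 0.2105 with IFN-β in shPpargc1b, and its interaction ran from -0.3534 to -0.1176. The extremes of 5 for the knockdown without IFN-β, 6 with it, 5 for the interaction, -0.0303, -0.1009, -0.0253 and -0.3534 all came without replicate 2 of IFN-β-treated shPpargc1b, and 6 also came without replicate 3 of IFN-β-treated shControl.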

Other observations

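Reads of mitochondrial ribosomal RNA, which the kit removes, came to 5523 counts for mt-Rnr1 and 17230 for mt-Rnr2 over the 12 libraries, against 168254 for mt-Nd6. By library, mt-Rnr2 ranged from 672 to 2576 counts and mt-Rnr1 from 239 to 869.

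The tRNA gene mt-Tm, which lies next to mt-Nd2 on the same strand, had 8542 counts in 1 unstimulated shControl library and 1373 to 4133 in every library of the groups shPpargc1b unstimulated, shPpargc1b IFN-β and shControl IFN-β. The lowest unstimulated shControl library had 1991, within that range. The nuclear copy of mt-Co1, Gm29216, had 1428 counts in 1 IFN-β-treated shControl library and at most 604 in every library of the other 3 groups. The lowest IFN-β-treated shControl library had 347.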
